A study of Mus musculus with 4 samples.

Results

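The genes described here are cytokine receptor chains and the proteins that carry or restrain their signal inside the cell: Janus kinases (JAK), signal transducers and activators of transcription (STAT), suppressors of cytokine signalling (SOCS) and protein inhibitors of activated STAT (PIAS). They were picked out by gene symbol, and the list was drawn up with earlier results of these data known. Of 37 genes listed, 36 had at least 1 probe, out of 19057 genes that the platform annotation ties to a probe of 1 symbol. Together they had 81 probes. A gene was tested where a probe exceeded an intensity of 16, the floor used throughout, on at least 1 of the 4 arrays, and 30 genes passed. At or below the floor on all 4 arrays were 6 genes (Il1rap, Il13ra1, Csf2rb, Lifr, Stat5b and Socs7), and Il2rg was not analysed here.

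Total RNA of memory-phenotype helper T cells, sorted as CD4+CD62L-CD44+ from spleen and lymph nodes, was hybridised to Illumina bead arrays. The dKO group had 2 arrays, from C57BL/6 mice labelled Lck-Cre MEKK2 KO MEKK3F/-: MEKK2 was knocked out, 1 MEKK3 allele was null, and the other was deleted where Cre was made from the Lck promoter, which is active in T cells. The WT group had 2 arrays from C57BL/6 wild-type mice, with no Cre or floxed control named. MEKK2 and MEKK3 are kinases at the top of MAP kinase cascades, and the title of the study places them in helper T cell differentiation driven by TGF-beta. The labels give no age, and they do not say whether arrays came from separate animals, so p-values measure only how these arrays scatter, and that scatter may be technical.

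Cytokines bind receptor chains that have no enzyme of their own. Paired JAKs sit on the receptor tails, phosphorylate them and each other, and STATs dock there, are phosphorylated, form dimers and enter the nucleus. SOCS proteins and CIS, the product of Cish, are themselves induced by STATs and switch the receptor off again, while PIAS proteins act on STATs in the nucleus. In helper T cells, IL-2 and IL-7 signal mainly through STAT5, IL-6 and IL-21 mainly through STAT3, IL-4 through STAT6 and IL-12 through STAT4. Receptors of the IL-1 and IL-17 families use other adaptors and are included as cytokine receptors, not as JAK partners.

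Between 12763 and 13218 probes of an array exceeded the floor. Within a replicate number, both arrays held nearly the same set of values, and number 2 was brighter on average (mean intensity 119 against 86.9), so every comparison is also given within each number. The labelled cell type was checked on T cell markers. Cd4 lay at 151 and 84.4 on dKO 1 and 2 and at 105 and 141 on WT 1 and 2, and Cd3e at 3162, 4279, 2250 and 4764. Cd44, a marker used in the sort, lay at 813 and 858 in dKO and 1110 and 1107 in WT. The probe of Cd5 was at the floor on all 4 arrays. Of 9 tested markers of the list, 5 were lower in dKO in both numbers and 0 higher (beside 26.6% and 27.6% of all features). Cd8a and the NK cell gene Ncr1 were at or below the floor on all 4 arrays, while Cd8b1 lay between 512 and 736. Other genes of NK and cytotoxic cells were well above it, with Nkg7 between 663 and 1971, Ctsw between 449 and 1414 and Klrd1 between 118 and 445. The 1 tested probe of the deleted Map3k3 lay at 204 and 246 in dKO and 311 and 387 in WT, and whether it covers the exons removed by Cre was not established. Both probes of Map3k2, the MEKK2 gene, stayed at or below 10.4 on all arrays, WT included, so its loss cannot be checked. Xist was at 327 and 536 in WT and below the floor in dKO, whereas the Y-linked Eif2s3y lay at 235 and 377 in dKO and at the floor in WT, so sex and genotype cannot be told apart in any difference below. In sorted bulk RNA, fewer cells of a type and less RNA per cell cannot be told apart either.

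In WT cells, 27 of the 30 tested genes exceeded the floor on both arrays. These were 13 of 20 listed receptor chains, all 4 JAKs, 3 of 4 STATs, 5 of 7 SOCS genes and both PIAS genes. Among receptors their intensities ran from 19.8 to 1139 on WT 1 and from 27.5 to 1314 on WT 2. For the JAKs they ran from 47.3 to 585 and from 57.9 to 781, and for the SOCS genes from 22.2 to 668 and from 29.8 to 1123. For the listed STATs they ran from 37.3 to 355 and from 51.0 to 687. Stat4, outside the list of members, lay at 954 on WT 1 and 941 on WT 2. Probes bind with different strength, so these ranges do not rank the genes. A probe at the floor does not show that its gene was silent: the probe of Stat5b, a main carrier of IL-2 signals, peaked at 7.49.

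**Figure D1:**
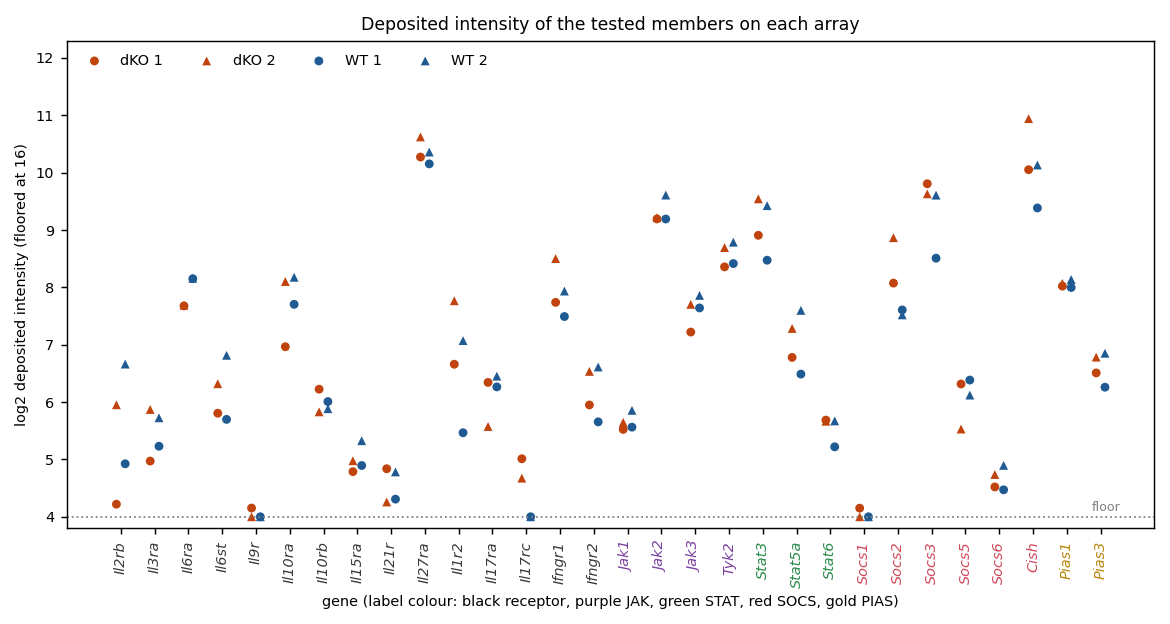
Deposited intensity (log2, floored at 16) of the 30 tested genes on each array, with circles for replicate number 1, triangles for number 2, red for dKO and blue for WT. The arrays of number 2 lie far above those of number 1 for genes such as Il2rb, while Socs2 and Cish lie higher in dKO than in WT within both numbers, and Il6ra lies lower.

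Comparing dKO with WT, no member passed the threshold. The largest positive log2 differences, apart from Socs3, which differed in 1 replicate number alone, were those of the feedback inhibitors Cish and Socs2, the IL-1 decoy receptor Il1r2 and the IL-17 receptor chain Il17rc. Of the 8 members lower in both replicate numbers, Il2rb and Il6ra had the largest differences. Il2rb is the beta chain shared by the IL-2 and IL-15 receptors, and Il6ra the chain that binds IL-6. Limma called 0 of 30 members and 0 of 10413 features (0% called), with an adjusted p of 0.9997 for each of the 30 members. At an unadjusted p under 0.05, which 3.43% of all features had in limma, there were 3 members higher in dKO, Cish, Socs2 and Il17rc (beside 1.75% of all features), and 0 lower (beside 1.68%). Il17rc was kept through its dKO arrays alone and both its WT values were set to the floor, so the count does not support a difference. Once the replicate number was added as a block, limma again called 0 members, beside 0.144% of all features (0.096% higher and 0.048% lower in dKO). At an unadjusted p under 0.05 in that fit there were 4 higher, Il17rc again among them (beside 6.13%), and 2 lower (beside 5.38%).

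After normalization the 2 groups did not overlap for 5 members with higher and 5 with lower values in dKO, 16.7% of the members each, beside 12.7% and 13.5% of all features. These shares lie near those of the whole array and are not a result about the members. The median log2 difference of the 30 members was 0.01, as it was for all features (0.01). It was 0.17 in replicate number 1 and −0.07 in number 2. By class the medians were 0.02 for receptors, −0.16 for JAKs, 0.24 for STATs, 0.39 for SOCS genes and 0.04 for PIAS genes. Stat2 and Stat4, outside the list of members, differed by −0.52 and −0.42. Values were higher in dKO in both numbers for 8 members and lower in both for 8 (26.7% each), beside 27.6% and 26.6% of all features. Within both numbers the difference was at least 1.5-fold and higher in dKO for 2 members, Cish and Il1r2 (1.91% of all features), and lower for 1, Il2rb (1.44%). For 19 of the 30 members (63.3%) the 2 replicate numbers differed more than the 2 genotypes did, much as for all features (63.1%).

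**Figure D2:**
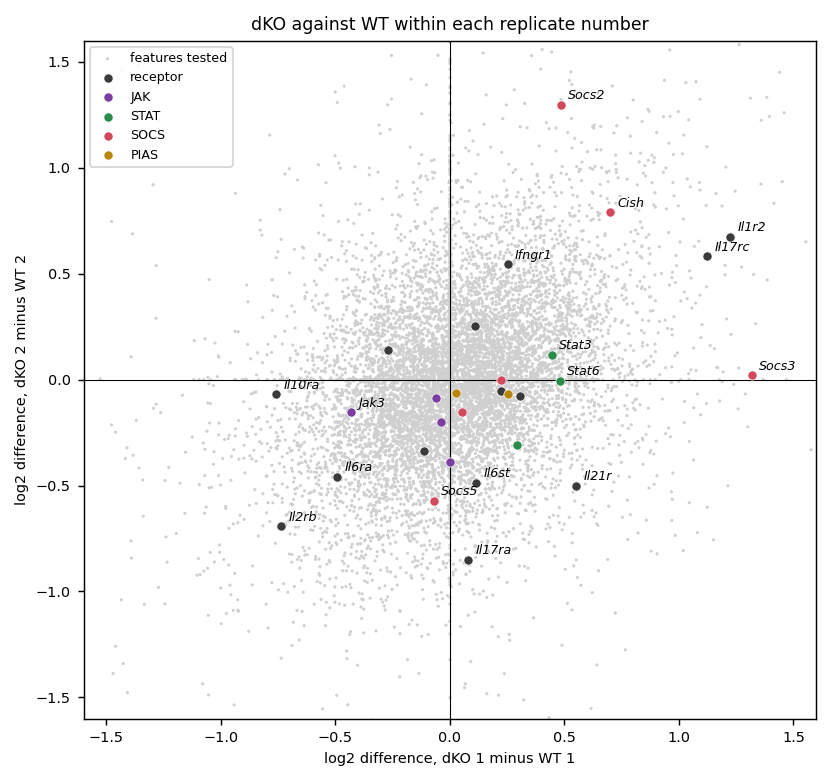
Log2 difference of dKO minus WT in replicate number 1 (horizontal) and number 2 (vertical), with members coloured by class and all features tested in grey (219 lie beyond the axes at 1.6). Cish, Socs2, Il1r2, Il17rc and Ifngr1 lie above 0 on both axes, Il2rb and Il6ra below 0 on both, and Socs3 lies far right near a difference of 0.02 in number 2.

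The SOCS genes gave the widest spread of the signalling classes. CIS binds phosphorylated receptor tails through its SH2 domain and competes with STAT5 there. Its gene Cish lay at 1061 and 1967 in dKO 1 and 2, whereas WT 1 and 2 gave 668 and 1123. The dKO array was the higher one in both numbers, by ratios of 1.59 and 1.75, although dKO 1 lay below WT 2 in deposited intensity. After quantile normalization the groups did not overlap. The log2 difference was 0.75 (SE 0.22; dKO 10.50 ± 0.27 and WT 9.75 ± 0.20, SD, n = 2 each), with an unadjusted p of 0.0217 in limma. With the replicate block the adjusted p was 0.185, the smallest of any member in that fit.

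The promoter of Cish is shown because CIS is a textbook STAT5 target and its value differed alike in both numbers. That of Il6ra is shown because its 3 probes all lay lower in dKO, as the kept probes of Tyk2, Il15ra, Jak3 and Stat5a did on average. Both choices drew on the values, so the pair does not relate the motif to a direction. STAT dimers bind the palindrome TTCNNNGAA. RefSeq windows of GRCm38.p6, from 250 bases before to 20 after the annotated start, were searched for it, and the palindrome reads the same on both strands. They are written 5′ to 3′ on the strand of the gene, with matches in capitals, Cish at chr9:107296409-107296678 (+ strand) and Il6ra at chr3:89913177-89913446 (− strand).
Cish: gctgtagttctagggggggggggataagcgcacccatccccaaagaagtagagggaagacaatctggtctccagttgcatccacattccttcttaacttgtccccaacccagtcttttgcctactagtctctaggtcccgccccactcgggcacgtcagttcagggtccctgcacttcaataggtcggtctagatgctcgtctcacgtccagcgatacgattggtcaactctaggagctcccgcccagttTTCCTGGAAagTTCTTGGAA
Il6ra: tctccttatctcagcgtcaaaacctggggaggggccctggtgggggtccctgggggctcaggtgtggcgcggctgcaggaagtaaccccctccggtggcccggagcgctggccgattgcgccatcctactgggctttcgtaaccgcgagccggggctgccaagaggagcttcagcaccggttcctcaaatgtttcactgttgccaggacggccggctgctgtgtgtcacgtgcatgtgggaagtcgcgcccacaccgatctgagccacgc
Cish held 2 matches, TTCCTGGAA and TTCTTGGAA, which begin at bases 1 and 12 counted from the start. The Il6ra window held none. Promoter windows were found for 27 of the 37 listed genes, Socs2 not among them. Of these 32 windows, 3 (9.38%) held the motif, beside 7.58% of all 32851 windows. The other matches were TTCAAGGAA of Il1r2, at base −111, and TTCTTAGAA of Socs3, at base −154, both in windows whose start lies inside the outer limit of the gene. The wider spacing TTCNNNNGAA, preferred by STAT6, was found in 1 member window, that of Ifngr2, as TTCCCGGGAA (3.12%, beside 6.30% of all windows).

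Socs2 encodes an inhibitor of growth hormone and STAT5 signals. It lay at 269 and 467 in dKO and at 195 and 184 in WT, so that both dKO arrays were above both WT arrays. The ratios were 1.38 and 2.54. The log2 difference was 0.89 (SE 0.27; dKO 8.46 ± 0.27 and WT 7.57 ± 0.31, SD, n = 2 each), with an unadjusted p of 0.0243 in limma and, in the blocked fit, an adjusted p of 0.325. Its second probe was at the floor on all 4 arrays.

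Socs3 encodes the inhibitor of gp130 and STAT3 signals. It lay at 895 and 793 in dKO and at 364 and 780 in WT. In deposited intensity only WT 1 was low, and the ratio was 2.46 in number 1 against 1.02 in number 2. The groups did not overlap only because dKO 2 lay just above WT 2. Its log2 difference of 0.67 was 0.34 without WT 1 and 0.35 without dKO 1. Socs5, whose product acts on IL-4 and epidermal growth factor receptors, lay at 79.6 and 46.2 in dKO and 83.5 and 69.7 in WT, with overlap. Socs6 differed by −0.05. Socs1, the inhibitor of interferon gamma and IL-2 signals, exceeded the floor on dKO 1 alone, at 17.8, and Socs7 on no array.

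Erythroid markers were higher in dKO beside Cish and Socs2. The summed intensity of 4 tested erythroid genes was 811 and 4209 in dKO and 63.0 and 136 in WT. Of the 4, 3 lay without overlap above WT (beside 12.7% of all features). The same 3 were called with the replicate block (beside 0.096% of all features), and Alas2 and Klf1 were at the floor on all arrays. Cish is also induced by erythropoietin in red cell precursors, and the part of such cells in the difference was not tested.

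Among chains of the common gamma family, Il2rb lay at 18.6 and 61.9 in dKO 1 and 2, and at 30.4 and 101 in WT 1 and 2. Both arrays of number 2 were above both arrays of number 1, so the groups overlapped, while the ratios within numbers were 0.614 and 0.611. The log2 difference was −0.71 (SE 0.75; dKO 5.06 ± 1.08 and WT 5.77 ± 1.04, SD, n = 2 each). The unadjusted p was 0.390 in limma and 0.0212 with the replicate block, where the adjusted p was 0.363. Leaving out an array breaks the balance of numbers: without dKO 1 the difference was 0.05, and without WT 2 it was 0.02. On dKO 1 the probe lay near the floor of 16. With all arrays, the difference was −0.35 with a floor of 32 and −0.51 with log2(intensity + 16).

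IL-2 receptor beta is abundant on NK cells and memory CD8 T cells. Of 9 tested markers of those cells, 7 were lower in dKO with no overlap and 0 higher (beside 13.5% and 12.7% of all features). Of the 7, Klra3, Klrb1c, Klre1 and Klrk1 lay below the floor on both dKO arrays. They were kept through WT alone and could only come out lower. Ctsw, Klrd1 and Nkg7 exceeded the floor on all 4 arrays. The summed intensity of the 9 markers was 2128 and 3467 in dKO and 3998 and 4745 in WT. The part of such cells in the Il2rb difference was not tested.

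Il15ra presents IL-15 to neighbouring cells. Its 3 kept probes all had a negative mean difference, from −0.51 to −0.21. The probe at −0.21 exceeded the floor on WT 1 alone, so it could not come out higher in dKO. The probe of highest mean lay at 27.6 and 31.5 in dKO and 29.7 and 40.1 in WT, without overlap once normalized. Il21r had opposite signs in the 2 numbers (0.55 and −0.50), with intensities between 19.1 and 28.6. Il9r exceeded the floor on dKO 1 alone, at 17.8. Il13ra1, a chain of the IL-4 and IL-13 receptor, did not exceed the floor on any array.

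In the gp130 family, Il6ra lay at 205 and 206 in dKO and at 284 and 286 in WT. Both dKO arrays were below both WT arrays. The ratios were 0.720 and 0.722. Its other 2 probes gave 0.654 and 0.674, and 0.776 and 0.672. The log2 difference was −0.48 (SE 0.26; dKO 7.69 ± 0.24 and WT 8.16 ± 0.27, SD, n = 2 each), with an unadjusted p of 0.128 in limma, 0.0224 with the replicate block, and an adjusted p of 0.367 there. The difference was −0.29 without WT 1 and −0.67 without WT 2. Probes of 1 gene on the same arrays are repeat readings of the same RNA, not further samples.

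Il6st encodes gp130, the chain that carries the signal of IL-6 and IL-27. It lay at 55.9 and 79.9 in dKO and 51.9 and 113 in WT, with opposite signs in the 2 numbers. Il27ra had kept probes that disagreed in sign within each number. The probe of highest mean lay at 1236 and 1577 in dKO and 1139 and 1314 in WT (ratios of 1.09 and 1.20), and the other at 306 and 296 in dKO and 396 and 348 in WT (0.772 and 0.851). Which probe speaks for Il27ra thus sets the direction. Lifr, the receptor chain for leukaemia inhibitory factor, stayed at or below 10.5 on every array.

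Among class II receptors, Ifngr1, the chain that binds interferon gamma, lay at 214 and 363 in dKO and at 180 and 245 in WT. The dKO array was the higher one in both numbers, by ratios of 1.19 and 1.48, and after normalization the groups did not overlap. The log2 difference was 0.40 (SE 0.23), with an unadjusted p of 0.151 in limma and 0.0544 with the replicate block. Without dKO 2 it was 0.21. Ifngr2, the signalling partner of Ifngr1, differed by 0.30 in number 1 and −0.08 in number 2.

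Il10ra, the chain that binds IL-10, lay at 125 and 275 in dKO and at 209 and 289 in WT. Only dKO 1 was low, and the ratio was 0.599 in number 1 against 0.950 in number 2. The log2 difference of −0.41 was −0.02 without dKO 1. Il10rb, which IL-10 shares with IL-22, differed by 0.08. Of the chains used by IL-3, IL-5 and GM-CSF, Il3ra lay at 31.4 and 58.5 in dKO and 37.5 and 52.9 in WT, with overlap, and the shared beta chain Csf2rb stayed at or below 8.99.

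Il1r2 binds IL-1 without passing on a signal and is made by myeloid cells, regulatory T cells and some activated T cells. It lay at 101 and 218 in dKO and at 44.2 and 135 in WT. The dKO array was the higher one in both numbers, by ratios of 2.29 and 1.62, although dKO 1 lay below WT 2 and the groups overlapped. The log2 difference of 0.95 (SE 0.57; dKO 7.20 ± 0.55 and WT 6.25 ± 0.94, SD, n = 2 each) had an unadjusted p of 0.164 in limma and 0.00783 with the replicate block, where the adjusted p was 0.301. It was 0.29 without WT 1 and 1.61 without WT 2. Il1rap, the signalling partner of the IL-1 receptors, had 6 probes and exceeded the floor with none.

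Of 17 tested markers of myeloid and dendritic cells, 5 were higher and 3 lower in dKO with no overlap (beside 12.7% and 13.5% of all features). The higher ones were the macrophage genes Csf1r (difference 1.00), Adgre1 (1.73), Vcam1 (1.35), C1qb (1.58) and C1qc (1.31), and the lower ones were Clec9a, Siglech and Ly6c1. Clec9a lay below the floor on both dKO arrays, was kept through WT alone and could only come out lower. No marker of the list was called. The summed intensity of the 17 markers was 1684 and 6259 in dKO and 2423 and 3549 in WT. Itgam and Itgax were at the floor on all arrays, and the part of such cells in the Il1r2 difference was not tested.

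Il17rc pairs with Il17ra to bind IL-17A and IL-17F. It lay at 32.3 and 25.5 in dKO and at 12.5 and 7.21 in WT, below the floor on both WT arrays. It was at least 1.81-fold higher in dKO against the floor. The probe passed the filter through dKO alone and the floor fixed the WT spread at 0, so its limma p-values (adjusted p of 0.9997, and 0.299 in the blocked fit) do not test the difference. The log2 difference of 0.85 depended on the floor, at 1.51 with a floor of 8 and 0.06 with a floor of 32, and it was 0.51 as the mean of its 2 kept probes. Il17ra lay at 81.2 and 47.6 in dKO and 76.9 and 87.5 in WT. There only dKO 2 was low.

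All 4 JAK genes had a negative mean difference, between −0.29 and −0.07, and for Jak1, Jak3 and Tyk2, 3 of the 4, the normalized groups did not overlap (13.5% of all features were lower without overlap). None passed in limma. Jak3, the kinase bound to the common gamma chain, lay at 149 and 208 in dKO and 200 and 232 in WT, with ratios of 0.747 and 0.897. Its other kept probe differed by −0.03, with ratios of 0.970 and 0.992. Jak1, which serves most of these receptors, differed by −0.12, and its 3 kept probes did not share a sign. Jak2, used by interferon gamma, GM-CSF and IL-12 receptors, lay at 585 and 595 in dKO and 585 and 781 in WT. In deposited intensity WT 2 stood above the other arrays, but after normalization dKO 2 was the low one (8.99, against 9.38 to 9.42 on the others), and without dKO 2 the difference of −0.19 was 0.02.

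Tyk2, the kinase of the type I interferon, IL-10 and IL-12 receptors, depended on the probe. The probe of highest mean lay at 328 and 414 in dKO and 341 and 442 in WT, a log2 difference of −0.07. Its other kept probes differed by −0.69 and −0.98. On these the dKO array was the lower one in both numbers, with ratios of 0.857 and 0.439 and of 0.584 and 0.441. As the mean of its 3 probes the difference was −0.58, which did not pass either.

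Of the STAT genes, Stat3, the transcription factor of IL-6 and IL-21 signals, lay at 480 and 746 in dKO and 355 and 687 in WT, with ratios of 1.35 and 1.09. Its log2 difference of 0.28 was 0.02 without WT 1 and 0.54 without WT 2. The other probes of Stat3 differed by 0.18 and −0.24, and the mean of the 3 by 0.07. Stat5a differed by 0.29 in number 1 and −0.31 in number 2, with intensities of 110 and 156 in dKO and 89.7 and 194 in WT. Stat6, the carrier of IL-4 signals, lay at 51.5 and 50.8 in dKO and 37.3 and 51.0 in WT, where only WT 1 was low in deposited intensity.

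The PIAS genes were close between the groups. Pias1 lay at 260 and 269 in dKO and 256 and 281 in WT, and Pias3 at 91.0 and 110 in dKO and 76.6 and 115 in WT. Their log2 differences were −0.02 (SE 0.23) and 0.09 (SE 0.28).

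**Figure D3:**
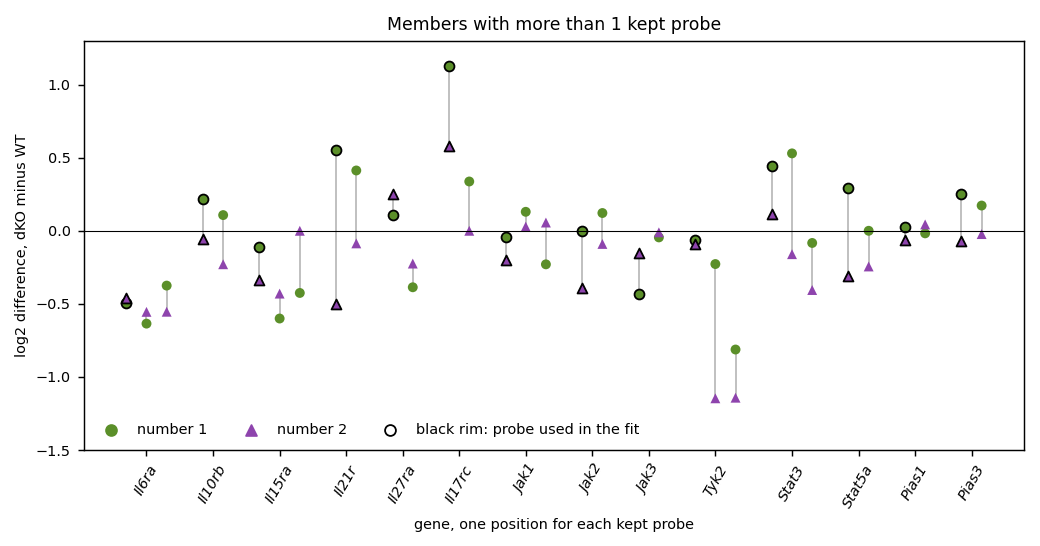
Log2 difference of dKO minus WT for every kept probe of the 14 members with more than 1, in replicate number 1 (green circles) and number 2 (purple triangles), with a black rim on the probe used in the fit. The 3 probes of Il6ra lie together below 0, those of Il27ra lie on both sides of 0, and the 2 dimmer probes of Tyk2 lie far below its bright one.

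The probes of 6 members, among the 14 that kept several, had opposite mean signs (Il10rb, Il27ra, Jak1, Jak2, Stat3 and Pias1). Stat5a and Stat5b are near-identical paralogs, so the Stat5a values are uncertain as those of 1 gene.

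The other genes of the pathway were described from 6 further lists, and limma called none of their tested members, with or without the block. Counts without overlap in these lists stand beside 12.7% of all features higher and 13.5% lower in dKO. They are a description, not a result about the lists. Of 8 further JAK-STAT receptor chains tested (29 listed), 0 were higher and 1 lower with no overlap, with a median log2 difference of −0.03. The lower one was Il12rb1, a chain of the IL-12 and IL-23 receptors, at 42.0 and 37.0 in dKO and 61.3 and 73.6 in WT (difference −0.76). Csf2ra differed by 0.63, Csf2rb2, above the floor on WT 2 alone, by −0.20 and Ifnar2 by −0.19, with overlap. The probes of Il4ra, Il12rb2, Il23r and Ifnar1, which fall outside the rule for named genes and were chosen after their values were seen, were at the floor on all 4 arrays.

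Of 6 further IL-1 and IL-17 family genes tested, 2 were higher and 2 lower with no overlap (beside 12.7% and 13.5% of all features). Their median was −0.21. Il17re, which pairs with Il17ra to bind IL-17C, lay at 78.1 and 65.3 in dKO and 28.5 and 20.4 in WT. Both dKO arrays were above both WT arrays, with a difference of 1.56 (unadjusted p of 0.0119 in limma, adjusted p of 0.148 in the blocked fit). Il18r1, the IL-18 receptor, differed by 0.60, the inhibitory receptor Sigirr by −0.59 and Il17rb, a receptor for IL-25, by −0.64. The IL-17 receptor chains did not share a direction: Il17re was higher in dKO, and Il17rb was lower in both numbers, with overlap. Il17rc was kept through dKO alone and could only come out higher. Il17ra had opposite signs in the 2 numbers.

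Of the 6 remaining STAT, SOCS and PIAS genes tested, 0 were higher and 3 lower without overlap (beside 12.7% and 13.5% of all features). Their median was −0.37. Pias2 lay at 36.9 and 28.6 in dKO and 57.0 and 56.4 in WT (difference −0.80). Stat2, which carries type I interferon signals, differed by −0.52, Pias4 by −0.33 and Stat4, the STAT of IL-12, by −0.42. Of 10 phosphatases and adaptors that restrain JAKs, 0 were higher and 1 lower without overlap, with a median of 0.01. Cbl, above the floor on dKO 1 alone, differed by 0.28. Grb2, the 1 lower gene, lay below the floor on both dKO arrays and was at least 1.13-fold lower in dKO. It was kept through WT alone and could only come out lower. The JAK phosphatase Ptpn1 differed by 0.30 and Grap by −0.41.

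Known STAT target genes of T cells had values in both directions. Of 26 tested (30 listed), 2 were higher and 6 lower in dKO with no overlap (beside 12.7% and 13.5% of all features). Their median was −0.09. Igfbp4 lay at 29.4 and 56.2 in dKO and 72.1 and 120 in WT (difference −1.20). The survival gene Bcl2l1 differed by −0.47 and Junb by −0.49, and Myc, below the floor throughout dKO, was at least 1.36-fold lower there. Myc was kept through WT alone and could only come out lower. These 4 genes are named for the smallest unadjusted p of the list in limma, and the 2 higher genes are not among them. Of 16 cytokine genes tested (31 listed), 0 were higher and 1 lower with no overlap, with a median of 0.20. That 1 was Ifng, the ligand of Ifngr1 and Ifngr2, at 248 and 553 in dKO and 470 and 1132 in WT (difference −0.99). Osm, a ligand of gp130 receptors, differed by 0.49, Il5 by 0.55 and Il13 by 0.34, the last 2 above the floor on dKO 2 alone. Il1b, a ligand that Il1r2 binds, is named because of its values and not by the naming rule. It lay at 59.3 and 517 in dKO and 22.6 and 183 in WT, with ratios of 2.62 and 2.82. The groups overlapped, the log2 difference was 1.45, and the adjusted p in limma was 0.9997, or 0.135 in the blocked fit.

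**Figure D4:**
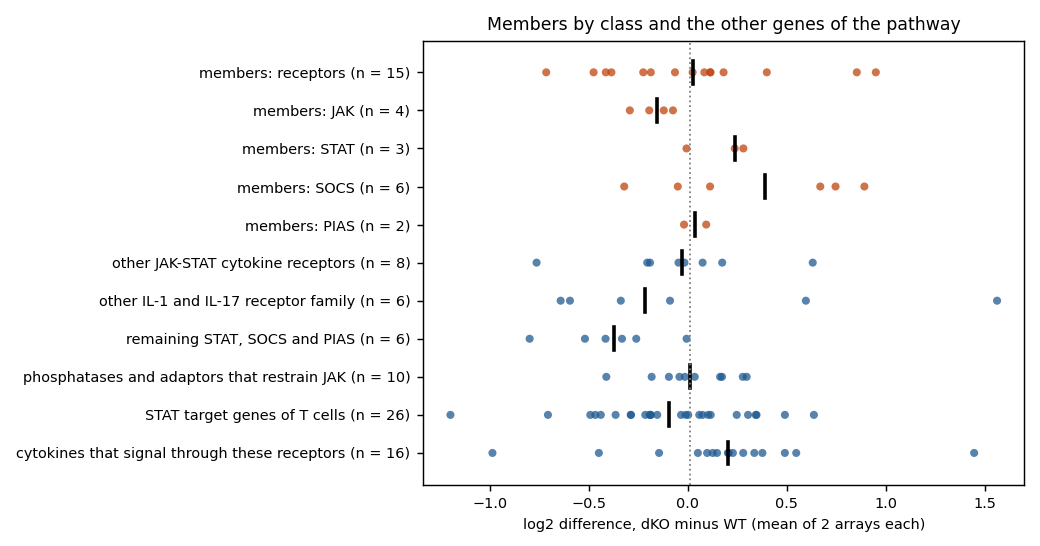
Log2 difference of dKO minus WT for each tested gene, with members by class in red, the other genes of the pathway by list in blue, black bars at each median and a dotted line at the median of all features (0.01). The SOCS members spread from −0.32 to 0.89, and the remaining STAT, SOCS and PIAS genes all lie below 0.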

How the data were processed

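The authors deposited 1 linear intensity per probe and array. Values below 0 show that the authors had subtracted background, and their other steps are not given in the sources used here. The 2 arrays of a replicate number had sorted intensities within 0.0846, against gaps of up to 6979 between numbers. The deposited non-normalized table was not used, because its 8 columns match no sample's labels. Members and lists were chosen with earlier results of these data known.

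A floor of 16 was set before log2 and quantile normalization. Of 45281 probes, 14673 exceeded the floor on at least 1 array. For each gene the brightest kept probe by mean stood for it, giving 8285 genes and 2128 probes without a single symbol. Entrez IDs matched 34807 of 34885 single-symbol probes to RefSeq (GRCm38.p6), and 0 symbols differed. Promoter sequences come from RefSeq on that build. Limma 3.58.1 in R 4.3.3 (lmFit, eBayes with a mean-variance trend) compared dKO with WT, two-sided, with Benjamini-Hochberg adjustment over 10413 features at 0.05. Genotype was the only term, which left 2 residual degrees of freedom. Adding the replicate number as a block left 1, and that result is printed because the arrays of a number had been normalized together. The labels name no pairing. An exact permutation of 2 against 2 arrays cannot go below 0.333 two-sided, and none was run. The number of arrays limits the precision. Where a whole group lay at the floor, the difference is given as "at least" N-fold, against the floor. The fits were tested on simulated arrays. From each list outside the members, the 4 tested genes of smallest unadjusted p may be named, and any marker.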

Additional observations from a re-analysis of the deposited data

How the results depend on the processing

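With 2 arrays a group, limma called 0 features higher and 0 lower in most settings (182 and 175 at an unadjusted p under 0.05), and 0 members in all 14 alternatives, of which 1 was chosen after seeing the data. It called 3 higher and 1 lower with log2(intensity + 16), 57 and 39 with no filter, an unreliable fit in which most features had a residual variance of 0, 10 and 5 with the replicate block, and 19 and 12 on the authors' values with the replicate block. With any array left out it called 0 to 0. Same-numbered arrays had correlated deviations from their group means (0.472), but nothing in the labels makes the replicate number a pairing. The smallest adjusted p of a member in limma was 0.111 with a block and 0.277 without. Of 413 member values under alternatives, 21 had another sign, 20 of them on leaving out an array, which leaves its group with 1 array assumed to vary like the other group. By limma, Il27ra was at −0.062 as the mean of its probes. Ranges with an array left out that crossed 0 were those of Ifngr2 (−0.22 to 0.45), Il10rb (−0.25 to 0.42), Il17ra (−0.91 to 0.13), Il21r (−0.35 to 0.40), Il2rb (−1.47 to 0.046), Il3ra (−0.39 to 0.26), Il6st (−0.60 to 0.23), Jak2 (−0.41 to 0.023), Pias1 (−0.18 to 0.15), Pias3 (−0.051 to 0.24), Socs5 (−0.85 to 0.21), Socs6 (−0.17 to 0.066) and Stat5a (−0.40 to 0.39). The cause was not tested. The other 16 members kept 1 sign or 0 throughout, with ranges such as Il6ra (−0.67 to −0.29), Ifngr1 (0.21 to 0.59), Il15ra (−0.33 to −0.12) and Stat6 (0.097 to 0.38). Genes near the floor are limited by signal over background.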
